A study of Mus musculus with 6 samples.

Results

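Trimethylation of lysine 79 of histone H3 (H3K79me3) was measured by chromatin immunoprecipitation followed by sequencing (ChIP-seq) in cells carrying the D546R form of the leukemia fusion protein MLL-AF9 and set against cells carrying its WT form. The comparison uses 1 D546R library and 1 WT library of the 6 libraries in the series, and takes in all 24012 gene regions counted. Statements rest on the 4925 regions whose mean normalised count over the 3 H3K79me3 libraries was at least 300, because the estimated number of reads per independent fragment was high in this mark. The series asks how the degree to which the fusion draws in the enzyme DOT1L relates to H3K79 methylation of its target genes and to transformation.

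The groups were MLL-AF9 (D546R), MLL-AF9 (D544R) and MLL-AF9 (WT), each delivered by retrovirus to hematopoietic progenitor cells from mouse bone marrow. D546R and D544R name exchanged residues as the labels give them. All cells therefore carry an MLL-AF9 protein, and cells without the fusion were not analysed here. The H3K79me3 antibody came from Diagenode, and a matching set of 3 libraries was made with an Abcam antibody (ab3594) against dimethylated lysine 79 (H3K79me2). The labels name no separate cultures or animals, the promoter of the virus or the time after transduction.

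DOT1L is the methyltransferase of lysine 79, and its mark lies over the bodies of transcribed genes, densest in their first part. AF9 (gene Mllt3) binds DOT1L directly, so the MLL-AF9 fusion can bring the enzyme to genes held by its MLL portion, whose CXXC domain binds unmethylated CG-rich DNA. The best known of these genes in leukemia are the HOXA homeobox genes and their partner MEIS1.

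Of the named genes described here, 4 promoters are printed to show how differently CG-rich the starts of genes with large ratios are. Dcun1d1 and Meis1 followed Fmr1 and Tsc22d2 as the lowest log2 ratios among named genes, Runx2 had the second lowest among the fusion targets, and Chil3 was the gene higher in both marks. Each sequence is the stretch of 250 bases before the start that RefSeq annotates on build GRCm38.p6, 5′ to 3′ on the strand of the gene, with CG in capitals. All 4 genes lie on the minus strand. The Meis1 stretch is chr11:19018970-19019219, that of Dcun1d1 chr3:35932967-35933216 (the most upstream of 3 annotated starts), that of Runx2 chr17:44814628-44814877 and that of Chil3 chr3:106167565-106167814.
Dcun1d1: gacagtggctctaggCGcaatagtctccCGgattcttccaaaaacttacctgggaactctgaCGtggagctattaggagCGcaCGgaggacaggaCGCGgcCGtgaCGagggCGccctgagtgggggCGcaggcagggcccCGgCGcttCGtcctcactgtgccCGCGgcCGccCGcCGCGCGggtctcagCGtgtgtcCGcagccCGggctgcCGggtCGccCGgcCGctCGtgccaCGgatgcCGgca
Meis1: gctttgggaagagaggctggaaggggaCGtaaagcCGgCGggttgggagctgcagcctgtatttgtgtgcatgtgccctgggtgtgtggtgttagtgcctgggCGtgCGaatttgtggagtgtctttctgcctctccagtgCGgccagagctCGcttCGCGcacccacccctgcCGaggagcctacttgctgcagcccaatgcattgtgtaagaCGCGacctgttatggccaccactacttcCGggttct
Runx2: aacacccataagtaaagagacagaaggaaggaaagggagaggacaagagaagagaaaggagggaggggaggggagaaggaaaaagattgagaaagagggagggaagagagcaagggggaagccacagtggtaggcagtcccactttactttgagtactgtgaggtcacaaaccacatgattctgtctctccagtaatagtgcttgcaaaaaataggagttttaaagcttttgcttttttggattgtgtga
Chil3: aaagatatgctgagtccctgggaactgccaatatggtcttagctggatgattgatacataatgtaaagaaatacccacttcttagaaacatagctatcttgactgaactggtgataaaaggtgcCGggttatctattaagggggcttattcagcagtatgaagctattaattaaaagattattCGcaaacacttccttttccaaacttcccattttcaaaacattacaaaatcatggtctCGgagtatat
The Dcun1d1 stretch holds 31 CG and that of Meis1 13, against 0 in Runx2 and 3 in Chil3. The stretches before starts 2 and 3 of Dcun1d1, not printed, hold 30 and 6 CG. Of 32851 stretches of the same length in the RefSeq table, 92.1% hold at least 1 CG, which reads the same on both strands, and the median is 6.0. The 493 tested genes with the most H3K79me3 counts per kb in D544R, which include Dcun1d1, Meis1 and Runx2, are a closer reference. Their median was 23.2 (402 genes matched, averaged over a gene's starts). Meis1 thus stood above the median of all stretches and below that of these genes. Among the printed genes with a large loss, the stretches ranged from 31 CG to 0. Beyond these, Erbb2ip, at a log2 ratio of -2.29, had a start with 49 CG.

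Across the 4925 regions, 247 (5.02%) were called lower and 84 (1.71%) higher in D546R than in WT. A call required a difference of at least 2-fold and an interval that excluded no change. With 1 library a side there is no error between cultures, so a call is a rule of size and not a significance test. The interval is an exact conditional binomial interval at 95% on counts divided by the estimated reads per independent fragment, and it covers counting error only. In bulk cells, fewer marked cells and less mark per cell cannot be told apart.

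The libraries held 6652571 counts (D546R), 5207395 (D544R) and 5859821 (WT), with an estimated 18.6, 8.12 and 9.73 reads per fragment in the same order. The estimate rests on autosomal regions under 5 kb without a count. Over regions of all lengths, those without a count numbered 2203 in D546R, 983 in D544R and 1063 in WT. The estimate is an upper one, and whether duplicate reads were removed before counting is not stated in the labels. The part of this difference between libraries in the results was not tested beyond the alternative with wider intervals. Levels that need no scaling between libraries are given as counts per kb over the median counts per kb of 48 long genes of other tissues in the same library, called fold over silent genes. That median was 5.55 counts per kb in D546R, 4.35 in D544R and 4.37 in WT. Scaling removes any change that all genes share, and neither input nor spike-in libraries entered these values.

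The larger side of the split was the lower one where counts were high. At a mean of 300 to under 1000 there were 175 lower and 84 higher genes among 3678. From 1000 to under 3000 there were 56 lower and 0 higher genes among 1104. Among the 143 genes with a mean of at least 3000, 16 were lower and 0 higher. At means of at least 1000 together, 72 of 1247 (5.77%) were lower and 0.0% higher. The median log2 ratio over all 4925 genes was -0.06, with 10th and 90th percentiles of -0.75 and 0.55.

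**Figure D1:**
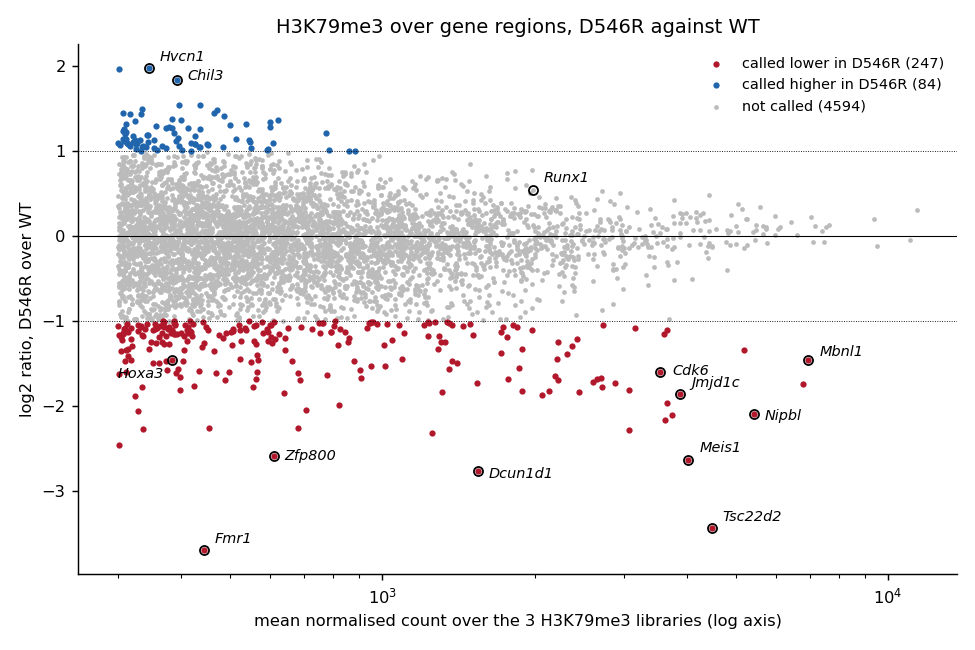
Log2 ratio of H3K79me3 in D546R over WT (vertical axis) against the mean normalised count of the 3 H3K79me3 libraries (log axis) for 4925 gene regions, 1 point each, with called genes in colour and dotted lines at 2-fold. The 84 genes called higher lie at means under 1000, while lower genes such as Tsc22d2 at -3.44 and Meis1 at -2.64 reach means over 3000.

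Loss went with the density of the mark. Genes were ranked by counts per kb in the D544R H3K79me3 library, which stands on neither side of the ratio, and split into 10 equal classes. The median log2 ratio of D546R over WT was 0.18 in the thinnest class and -0.52 in the densest, where the middle 50% of 493 genes ran from -0.96 to -0.14. In the densest class 111 genes were called lower (22.5%) and 4 higher. The median level in that class was 3.81-fold over silent genes in D546R, 4.23-fold in D544R and 5.54-fold in WT. Ranking by the WT H3K79me2 library gave the same picture, with -0.52 in the densest class, 114 lower genes (23.1%) and 0.09 in the thinnest.

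The D544R library, against the same WT library, had a median of -0.21 in the densest class, and the WT library had the highest level of the 3 in these genes. For this ratio the ranking library is itself a side, which selects for high D544R counts. Ranked by the WT H3K79me2 library, the D544R median in the densest class was -0.27. Against the shared WT H3K79me3 library, 14 genes (0.284%) were lower and 37 (0.751%) higher in D544R. Dimethylation did not follow this trend: the median log2 ratio of D546R over WT in H3K79me2 was 0.15 in the densest class, at 12.3-fold over silent genes in D546R and 11.5-fold in WT. Among the 980 genes at least 2-fold over silent genes in D544R, 153 (15.6%) were lower and 7 (0.714%) higher. Among the 3945 genes under that level, 94 (2.38%) were lower and 77 (1.95%) higher. Of 290 genes under 30 kb 43 were lower (14.8%), against 1 of 490 genes of 300 kb or more (0.204%), and the median levels in WT were 4.71-fold and 1.03-fold over silent genes in these length classes.

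**Figure D2:**
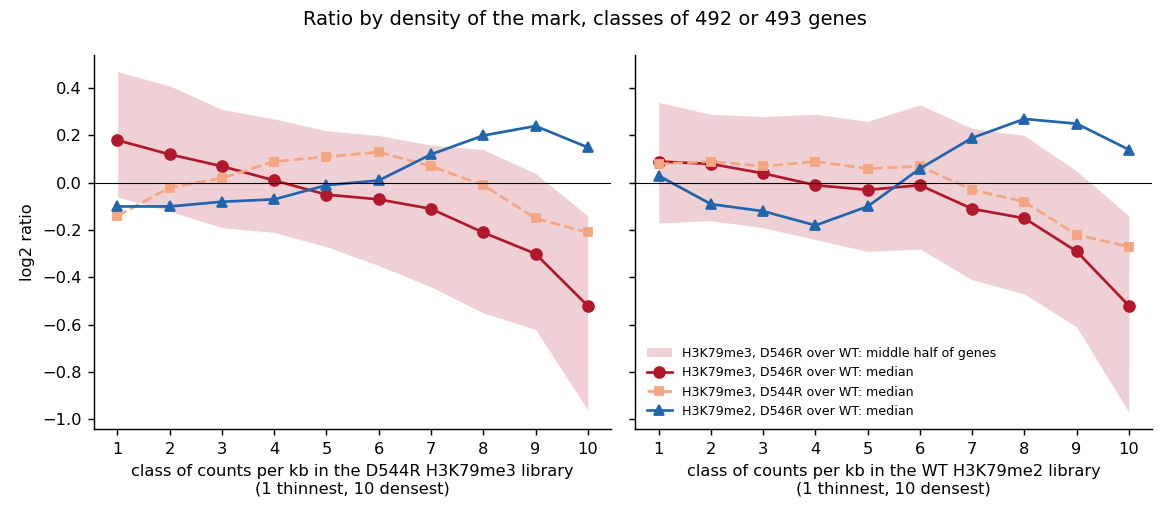
Median log2 ratio (vertical axis) in 10 classes of genes from thinnest to densest in counts per kb, ranked by the D544R H3K79me3 library (left) and the WT H3K79me2 library (right); the band holds the middle 50% of genes for H3K79me3 in D546R over WT. On both axes the H3K79me3 median of D546R over WT ends at -0.52 in the densest class, while the H3K79me2 median there lies above 0.

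A call of lower selects in part for a high WT count, so the D544R library, which stands on neither side of the ratio, is given beside it. That library entered the size factors and the count minimum. A gene low in D546R may therefore reach the minimum through its D544R or WT counts, and the D544R level is not independent of the selection. The median level of the 247 lower genes was 1.54-fold over silent genes in D546R, 2.62-fold in D544R and 4.02-fold in WT, against 1.19-fold, 1.19-fold and 1.28-fold over all genes tested. Their median log2 ratio of D544R over WT was -0.37. In D546R 87 of them stayed at least 2-fold over silent genes, against 185 in WT. Of the genes at 2-fold or more in WT, 98 were below that level in D546R, and 21 were below the silent genes themselves.

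Among targets of MLL fusions outside the HoxA cluster, the share of members called lower was above that of all genes tested. Of 28 listed targets 20 reached the count minimum, and 9 of these 20 were lower and 0 higher, against 5.02% and 1.71% of all genes tested. Their median log2 ratio was -0.46, against -0.06 for all genes tested, and -0.35 after subtracting the median of the density class of each gene. The list was chosen with earlier results of these data known, so its count is a description.

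Meis1 (NM_010789, mm9 chromosome 11, 18778430 to 18918972), the TALE homeobox partner of HOXA9, had 1118 counts in D546R, 4525 in D544R and 5842 in WT. The D546R library stood far below both others. Its log2 ratio of D546R over WT was -2.64 (fragment interval -3.04 to -2.25), a 6.22-fold difference, and that of D544R over WT was -0.20 (-0.37 to -0.03). In level, Meis1 was 1.43-fold over silent genes in D546R, 7.41-fold in D544R and 9.51-fold in WT, so that little of its mark was left above the silent level in D546R.

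Runx2 (NR_073392, chromosome 17, 44738937 to 44951746), a transcription factor of bone and blood progenitors, had 1612 counts in D546R, 3653 in D544R and 5315 in WT. Its log2 ratio was -1.97 (-2.32 to -1.64), and its level fell to 1.36-fold over silent genes in D546R, against 5.71-fold in WT. Jmjd1c, of the histone demethylase family, had 1890 counts in D546R, 3605 in D544R and 5791 in WT, a log2 ratio of -1.87 (-2.18 to -1.56). Both genes were lowest in D546R, with D544R between D546R and WT.

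Zeb2, which encodes a zinc finger repressor, had 1225 counts in D546R, 2203 in D544R and 3691 in WT and stood at -1.84 (-2.24 to -1.46). Its region overlaps 2 others and shares counts with them. The remodeler gene Chd9 had 1362 counts in D546R, 2465 in D544R and 3782 in WT, at -1.72 (-2.11 to -1.36), and its level of 1.08-fold over silent genes in D546R was close to silent. Cdk6, a kinase that drives entry into the cell cycle, had 1832 counts in D546R, 3748 in D544R and 4668 in WT, at -1.60 (-1.93 to -1.28).

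Mbnl1, a regulator of splicing and the most heavily counted of these targets, had 3893 counts in D546R, 7310 in D544R and 8999 in WT, at -1.46 (-1.68 to -1.24). It kept a level of 5.37-fold over silent genes in D546R, against 15.8-fold in WT. The myeloid and lymphoid transcription factor gene Mef2c stood at -1.07 (-1.47 to -0.69) and the developmental regulator gene Eya1 at -1.01 (-1.52 to -0.52). Eya1 had 847 counts in D546R, 1602 in D544R and 1434 in WT, so D544R was not between the others there, and Eya1 was no longer called when libraries were scaled by total counts or by edgeR's trimmed mean (TMM) factors.

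The remaining 11 of the tested targets were not called, and they spanned log2 ratios from -0.50 (Lmo2) to 0.55 (Runx1). Runx1 (chromosome 16, 92599710 to 92826319), a transcription factor needed to form blood stem cells, had 2786 counts in D546R, 1696 in D544R and 1603 in WT. Its log2 ratio was 0.55 (0.22 to 0.87), short of 2-fold and in the other direction from Meis1. Myb was at 0.20 (-0.41 to 0.81), Pbx3 at 0.34 (-0.12 to 0.80) and Satb1 at 0.51 (-0.08 to 1.09), with intervals that included no change. Levels in WT differed among the uncalled targets: Zfp521 and Prdm16 were at 0.967-fold and 0.935-fold over silent genes, while Myb was at 3.35-fold and Lmo2 at 3.15-fold. Whether the WT level bears on the call was not tested. Below the count minimum, Flt3 had 319 counts in D546R, 171 in D544R and 339 in WT.

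In the HoxA cluster, whose homeobox genes hold progenitors in an immature state, only Hoxa3 of 11 members reached the count minimum. Hoxa3 (chromosome 6, 52117060 to 52163066) had 194 counts in D546R, 460 in D544R and 449 in WT. Its log2 ratio was -1.46 (-2.59 to -0.47), and its region overlaps 5 others, so these counts belong in part to neighbouring genes. Hoxa9 had 143 counts in D546R, 282 in D544R and 227 in WT, and Hoxa10 had 120, 271 and 195 in the same order. Both were lowest in D546R, with fragment intervals from -2.31 to 0.31 for Hoxa9 and from -2.50 to 0.38 for Hoxa10 that include no change. Hoxa7 had 33 counts in D546R, 111 in D544R and 125 in WT, and Hoxa5 had 72, 39 and 75 in that order, too few to place them at this depth. In H3K79me2, the D546R over WT log2 ratio was -2.49 (-3.83 to -1.42) for Hoxa9 and -2.78 (-4.38 to -1.56) for Hoxa10. Hoxa7 was at -5.92 (-18.06 to -2.69) there, with 2 counts in D546R. The Hoxa5 interval, -15.57 to 0.11, included no change. H3K79me2 calls were made only on genes past the H3K79me3 minimum, so these genes have none.

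Beside the cluster, 1 of 8 tested flanking genes was lower, against 5.02% of all genes tested, and 8 genes are too few to compare. That gene was Skap2, an adaptor of Src kinases (chromosome 6, 51807163 to 51962548), with 1377 counts in D546R, 2787 in D544R and 3683 in WT, at -1.67 (-2.05 to -1.31). The median of the 8 genes was -0.29. Cbx3, an HP1 family gene, stood at -1.0 (-2.15 to 0.02) and Hnrnpa2b1 at -0.91, neither of them called, and Jazf1 at 0.14.

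**Figure D3:**
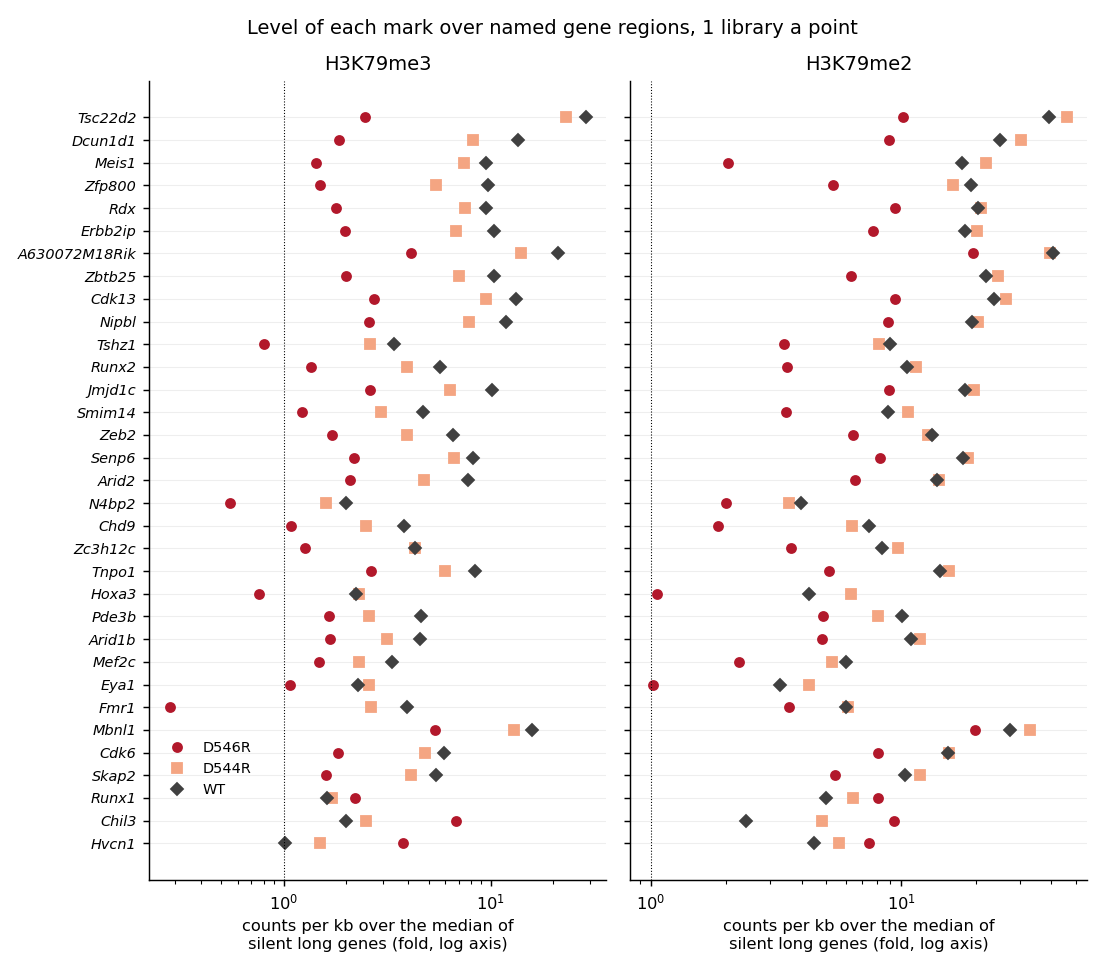
Level of H3K79me3 (left) and H3K79me2 (right) as counts per kb over the median of silent long genes in the same library (log axis) for the 26 genes lower in both marks and 7 others, 1 point per library. For Meis1 the D546R point lies at 1.43-fold in H3K79me3, against 9.51-fold in WT, while for Runx1, Chil3 and Hvcn1 the D546R point lies right of WT in both marks.

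Genes of chromatin remodelers and cohesin, the ring that holds chromosomes together and folds them, were lower in 8 of 26 tested members and higher in 0, against 5.02% and 1.71% of all genes tested. Their median was -0.59, and -0.35 after subtracting class medians. Nipbl, which loads cohesin (chromosome 15, 8237823 to 8394463), had 2239 counts in D546R, 5350 in D544R and 8068 in WT, at -2.10 (-2.39 to -1.82). Its level of 2.58-fold over silent genes in D546R stood against 11.8-fold in WT. The cohesin partner gene Pds5a was at -1.45 and the ring subunit gene Smc3 at -1.04 (-1.96 to -0.20), the last not called with total counts.

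Arid2 and Arid1b, genes of BAF family complexes, were at -1.78 (-2.16 to -1.42) and -1.35 (-1.59 to -1.11). Baz2b, which encodes a bromodomain protein, had 3356 counts in D546R, 6863 in D544R and 9470 in WT, at -1.75 (-1.99 to -1.52). Chd1 and Chd7, remodeler genes of the same family as Chd9, were at -1.27 and -1.09. Arid1a (-0.90) and Baz1a (-0.88) were short of 2-fold, and 24 of the 26 members were below 0.

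Polycomb genes, whose products repress transcription through histone marks, were lower in 4 of 9 tested members and higher in 0, against 5.02% and 1.71% of all genes tested. Their median was -0.76, and over the 16 members with a mean of at least 100 it was -0.31. Rnf2, the catalytic ring finger of the first Polycomb complex, had 236 counts in D546R, 315 in D544R and 474 in WT, at -1.26 (-2.28 to -0.34). Bcor, a corepressor of that complex and a partner of AF9, had 487 counts in D546R, 1007 in D544R and 976 in WT, at -1.25 (-1.93 to -0.62). Suz12 and Ezh2, core subunits of the second complex, were at -1.16 (-1.85 to -0.52) and -1.03 (-1.63 to -0.45), and in D544R over WT at -0.84 and -0.73. Ezh2 was no longer called with total counts or TMM factors, and Rnf2 not with 2 times the reads per fragment. Bcor and Rnf2 differ in this: the D544R ratio was 0.22 for Bcor and -0.42 for Rnf2.

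In genes of DOT1L and the elongation complexes, 1 of 16 tested members was lower and 1 higher, with a median of -0.13. The shares over all genes tested were 5.02% and 1.71%, so 1 call each way in 16 is near them. The lower one was Cdk13, a kinase of RNA polymerase II, with 1388 counts in D546R, 3764 in D544R and 5243 in WT, at -2.17 (-2.54 to -1.82). Its region overlaps 1 other, and the nearby gene Mplkip was also lower, at -1.88 (-3.11 to -0.84). The higher one was Ell, an elongation factor that is also an MLL fusion partner in human leukemia, with 878 counts in D546R, 343 in D544R and 263 in WT, at 1.49 (0.78 to 2.23). Of the genes encoding the complex itself, Dot1l had 184 counts in D546R, 199 in D544R and 188 in WT and Mllt3 had 175, 199 and 157 in that order, both below the count minimum.

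Histone methyl and acetyl enzyme genes were lower in 2 of 26 and higher in 1, with a median of -0.20. These counts are near the 5.02% and 1.71% of all genes tested. The corepressor gene Ncor1 was at -1.13 (-1.56 to -0.72), with a level of 3.60-fold over silent genes in D546R and 8.41-fold in WT. The acetyltransferase gene Ep300 was the other lower member, at -1.05, and was not called with total counts.

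Splicing factor genes were lower in 3 of 15 tested members and higher in 0, against 5.02% and 1.71% of all genes tested, with a median of -0.66 that shrank to -0.16 after subtracting class medians. Hnrnpu, a nuclear RNA binding protein, had 409 counts in D546R, 580 in D544R and 953 in WT, at -1.47 (-2.21 to -0.79). Mbnl1, which stands in this list too, and Sf3b1, at -1.13 (-1.73 to -0.56), were the others. Of 22 tested signalling and Ras pathway genes 1 was lower, close to the 5.02% of all genes tested. It was the growth kinase gene Mtor, with 212 counts in D546R, 325 in D544R and 628 in WT, at -1.81 (-2.87 to -0.90). Its region overlaps 2 others, and its level in WT was 1.29-fold over silent genes.

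Few genes of blood cell identity reached the count minimum. Lists this small would hold few calls at the shares of all genes tested, 5.02% lower and 1.71% higher. None of 9 tested stem and progenitor genes was called, with a median of -0.04. None was called among 2 granulocyte and monocyte progenitor genes (median 0.34), 5 erythroid and megakaryocyte genes (0.09) or 3 lymphoid genes (-0.33). Spi1, the gene of the myeloid master regulator PU.1, had 732 counts in D546R, 182 in D544R and 371 in WT, at 0.73 (0.05 to 1.41). Of 12 mast cell and basophil genes the 1 tested, the transcription factor gene Mitf, was lower at -1.01 (-1.87 to -0.22), with a level of 1.37-fold over silent genes in WT, and was not called with total counts or TMM factors. Of 30 mature myeloid genes 4 were tested and 2 of these were higher, among them Chil3, against 1.71% of all genes tested. With 4 genes this count is a description.

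No member was called among 7 tested cell cycle genes (median -0.42), 4 MYC and ribosome assembly genes (-0.25), 3 housekeeping genes (0.02), 5 cell cycle inhibitor and p53 genes (0.02) and 2 interferon response genes (0.38). At the 5.02% lower and 1.71% higher of all genes tested, lists of this size would hold few calls. Ribosomal protein genes are short, and none of 33 reached the count minimum. The 9 members with a mean of at least 100 had a median of 0.27. Silent genes of other tissues likewise had no tested member, and the 7 with a mean of at least 100 had a median of 0.93. Silent long genes had a median of 0.07 over 48 members, with none called.

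**Figure D4:**
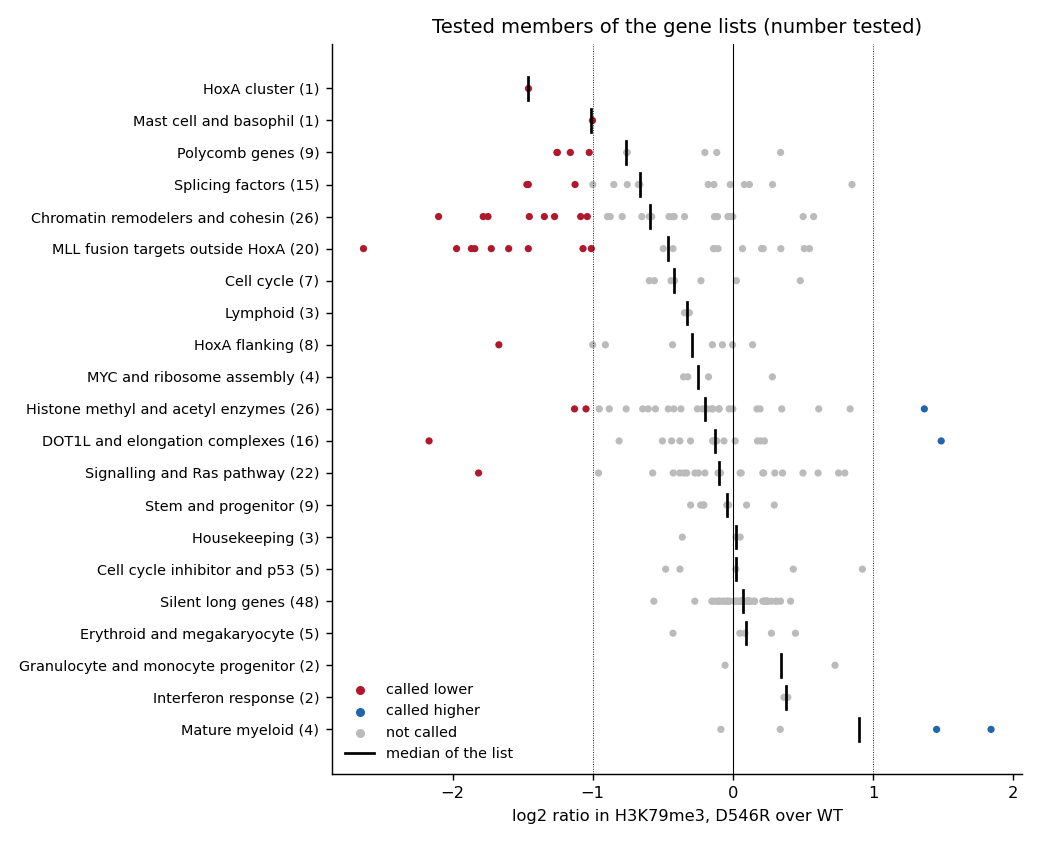
Log2 ratio of H3K79me3 in D546R over WT (horizontal axis) for each tested member of 21 gene lists, with the number tested in brackets, the median as a bar and dotted lines at 2-fold. MLL fusion targets have 9 of 20 members called lower and chromatin remodelers and cohesin 8 of 26, while the 48 silent long genes sit around their median of 0.07.

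The lowest ratio among genes tested belonged to Fmr1, the RNA binding protein gene of fragile X syndrome (X chromosome, 65929715 to 65971136). It had 65 counts in D546R, 474 in D544R and 716 in WT, a log2 ratio of -3.70 with a wide fragment interval of -5.80 to -2.21. Its level in D546R, 0.283-fold over silent genes, was below that of silent genes, against 3.95-fold in WT. The next was Tsc22d2, of the TSC22 leucine zipper family (chromosome 3, 58217610 to 58270709), with 728 counts in D546R, 5275 in D544R and 6649 in WT. Its log2 ratio was -3.44 (-3.95 to -2.98), a 10.9-fold difference, and D544R differed from WT by -0.16. Among named genes its WT level, 28.6-fold over silent genes, was exceeded by 1810026B05Rik, which had 12.3-fold in D546R, against 41.9-fold in WT.

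Dcun1d1, which promotes the attachment of NEDD8 to cullins (chromosome 3, 35789026 to 35831256), had 435 counts in D546R, 1505 in D544R and 2491 in WT, at -2.77 (-3.45 to -2.16). The zinc finger gene Zfp800 had 196 counts in D546R, 562 in D544R and 999 in WT, at -2.60 (-3.67 to -1.68). In these genes too D546R was lowest and D544R lay nearer to WT. Rdx, which ties actin to the cell membrane, was at -2.32 (-3.02 to -1.69), the scaffold gene Erbb2ip at -2.29 (-2.70 to -1.91), Phtf1 at -2.28, the zinc finger gene Zbtb25 at -2.26 and Srgn, a proteoglycan of myeloid granules, at -2.06 (-3.32 to -1.0). Phtf1 and Srgn were also low in D544R over WT, at -1.0 and -0.90.

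Some lower genes lay side by side. The largest runs of consecutive tested genes called lower had 4 genes each. The first, on chromosome 3 from 58217610 to 58397466, held Tsc22d2, the stress protein gene Serp1 (-1.33), the translation factor gene Eif2a (-1.45) and the selenoprotein gene Selt (-1.79). The regions of Serp1 and Eif2a overlap each other. The second run, on chromosome 5 from 65837993 to 66218023 over 380 kb, held Smim14 (-1.85), the ubiquitin enzyme gene Ube2k (-1.33), Pds5a (-1.45) and N4bp2 (-1.77), none of which overlaps another.

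A shorter run of 3 genes, Gm6981 (-1.16), Rdx and the RNA binding gene Zc3h12c (-1.68), lay on chromosome 9 from 51808165 to 51976216, and each of these regions overlaps 1 other. With 2 times the reads per fragment Serp1 and Gm6981 were no longer called. The nearest tested gene that did not overlap was also lower for 35 of the 247 lower genes (14.2%), against 4.73% of all tested genes with such a neighbour. Chromosome medians of autosomes ran from -0.17 on chromosome 4 to 0.13 on chromosome 8.

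A call of higher likewise selects for a low WT count, and a gene may reach the count minimum through D546R alone. The 84 higher genes had a median level of 1.56-fold over silent genes in D546R, 1.03-fold in D544R and 0.757-fold in WT, against 1.19-fold, 1.19-fold and 1.28-fold over all genes tested. Their median log2 ratio of D544R over WT, which shares the WT library, was 0.56. In D546R 24 of them were at least 2-fold over silent genes. Their counts ran from 425 to 1278 in D546R and from 121 to 535 in WT.

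Among the 24, Hvcn1, a proton channel of phagocytes and lymphocytes (chromosome 5, 122657737 to 122692306), had 724 counts in D546R, 224 in D544R and 154 in WT, at 1.98 (1.11 to 2.93). Chil3, a lectin of the chitinase family that neutrophils and macrophages make (chromosome 3, 105948471 to 105970482), had 825 counts in D546R, 239 in D544R and 193 in WT, at 1.84 (1.05 to 2.69). In both the D546R library stood above the other libraries. Chil3 was at 6.75-fold over silent genes in D546R, against 2.01-fold in WT.

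The actin binding gene Cotl1 was at 1.54 (0.80 to 2.32), with 4.45-fold over silent genes in D546R and 1.62-fold in WT. Others of the highest, such as the nerve cell adhesion gene Nfasc (1.97), the phosphorylase kinase gene Phka1 (1.5) and Evc2 (1.44), were below 1.5-fold over silent genes in D546R too. On the X chromosome Rps6ka6 (1.27), Hdx (1.10) and Apool (1.37) formed a run of 3 higher genes, with WT levels of 0.356-fold, 0.364-fold and 0.835-fold. Hdx was not called with 2 times the reads per fragment.

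The same genes were then read in H3K79me2, in other libraries of these genotypes. Of 4917 genes with enough H3K79me2 counts, 36 (0.732%) were lower and 8 (0.163%) higher in D546R than in WT. Among 246 of the genes lower in H3K79me3, 26 were also lower in H3K79me2 (10.6%) and 1 was higher, and 157 were below 0 (63.8%), against 46.7% of all tested. Their median H3K79me2 log2 ratio was -0.10, and 173 of the 246 lay within 0.5 of no change, against 4252 of the 4917.

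The 26 genes lower in both marks hold 8 of the fusion targets or HoxA genes named above: Meis1, Runx2, Jmjd1c, Zeb2, Chd9, Mef2c, Eya1 and Hoxa3. Tested were 20 such targets and 1 HoxA gene, while the 26 come from 4917 genes in all. These lists were chosen with earlier results of these data known, so the 8 are a description. The 26 genes also hold Tsc22d2, Dcun1d1, Zfp800, Rdx, Erbb2ip, A630072M18Rik, Zbtb25, Cdk13, Nipbl, Tshz1, Smim14, Senp6, Arid2, N4bp2, Zc3h12c, Tnpo1, Pde3b and Arid1b. Their H3K79me3 log2 ratios ran from -3.44 to -1.01 with a median of -1.86, and their H3K79me2 ratios from -3.12 to -1.01 with a median of -1.34. In D544R over WT the medians were -0.36 in H3K79me3 and 0.01 in H3K79me2. The median H3K79me3 level was 1.69-fold over silent genes in D546R, 5.10-fold in D544R and 7.97-fold in WT. After subtracting class medians the ratios ran from -2.92 to -0.72. The 2-fold rule and class medians between 0.18 and -0.52 kept these values below 0 in advance.

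Within these genes the balance between marks differed. Meis1 (-2.64 in H3K79me3, -3.12 in H3K79me2), Hoxa3 (-1.46, -2.01), Chd9 (-1.72, -2.02), Mef2c (-1.07, -1.43) and Eya1 (-1.01, -1.69) were lower in dimethylation than in trimethylation. Tsc22d2 (-3.44, -1.95), Dcun1d1 (-2.77, -1.49), Nipbl (-2.10, -1.13), Cdk13 (-2.17, -1.32) and Jmjd1c (-1.87, -1.02) were lower in trimethylation. The difference between marks was not tested.

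Other lower genes were lower in trimethylation alone by the rule. Hnrnpu stood at -1.47 in H3K79me3 and 0.16 in H3K79me2, Srgn at -2.06 and -0.20, Mtor at -1.81 and -0.17, Smc4, a condensin subunit gene, at -1.84 and -0.24, and Rnf2 at -1.26 and 0.46. Cdk6 (-1.60, -0.93) and Skap2 (-1.67, -0.93) were just short of 2-fold in H3K79me2. Of the 84 genes higher in H3K79me3, Chil3 was the 1 also higher in H3K79me2, at 1.96, with 348 H3K79me2 counts in D546R, 213 in D544R and 157 in WT.

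Across genes, which are not independent replicates and share density and overlapping regions, the log2 ratios of the marks correlated with a Pearson r of 0.15 and a Spearman rho of 0.03 over 4925 genes. Over the 493 genes of the densest class these were 0.68 and 0.57.

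**Figure D5:**
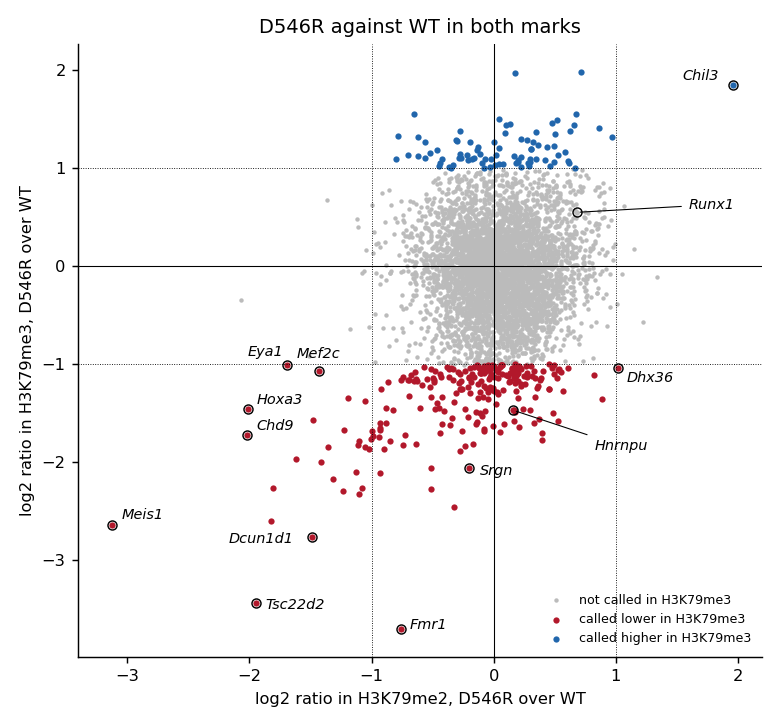
Log2 ratio of D546R over WT in H3K79me3 (vertical axis) against that in H3K79me2 (horizontal axis), 1 point per gene, with dotted lines at 2-fold. A tail of genes led by Meis1 (-2.64 and -3.12) and Tsc22d2 (-3.44 and -1.95) is low in both marks, while many lower genes such as Hnrnpu (-1.47 and 0.16) lie near 0 in H3K79me2.

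The labelled progenitor cells were compared with marker genes in the same libraries, and markers of white blood cells had higher median levels than those of other lineages. Of 7 genes of white blood cells and progenitors, 3 were at least 2-fold over silent genes in D546R and 4 in WT, with medians of 1.85-fold and 2.05-fold. Ptprc, the gene of the common leukocyte antigen CD45, was at 3.49-fold in D546R and 5.06-fold in WT, and Spi1 at 6.29-fold and 4.05-fold. Medians of erythroid and megakaryocyte markers were 0.552-fold in D546R and 0.875-fold in WT, and those of lymphoid markers 0.701-fold and 0.926-fold. Pf4, a platelet gene, had 0 counts in D546R and 1 in WT. Stroma and endothelium markers had medians of 1.07-fold in D546R and 0.754-fold in WT, and markers silent in blood 0.991-fold and 0.413-fold.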

How the data were processed

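ChIP-seq of H3K79me3 and H3K79me2 was done on 1 library per genotype and mark. Per the labels, sonicated chromatin of about 300 bp was immunoprecipitated and several sequencing runs were combined per library. The submitters' processing notes name the mm9 build and the tools DESeq, bedtools and Bowtie without roles, and the versions are not given in the sources read. The deposited values are raw counts of reads per gene region. Per the file headers, a region runs from 2 kb upstream of the start of transcription to the end of the transcript. The table gives no strand, so the side of the 2 kb extension was read for 1 pair of neighbours only. On mm9 the Eif2a region (plus strand) begins at 58327742 and the Serp1 region (minus strand) ends at 58329806. On GRCm38.p6 the stretches before their starts are 58525571-58525820 and 58525885-58526134. If Eif2a carries the 2 kb before its start, the Serp1 region stops at its own start. The 2 kb of minus-strand genes may therefore lie past the end of the transcript. Of all regions 9875 overlapped another, and 1762 of those tested.

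Size factors (median of ratios over the 3 H3K79me3 libraries, 20863 genes with a count in each) were 1.169 (D546R), 0.872 (D544R) and 0.982 (WT). Log2 ratios used a prior count of 0.5. Reads per fragment came from the share of 4591 autosomal regions under 5 kb with no count, an upper estimate, since unreachable regions would also be empty. A call needed a mean of at least 300, 2-fold and a fragment interval without 0. H3K79me2 calls needed the same H3K79me3 minimum and a mean of at least 100 in H3K79me2. Just inside the minimum of 300 were Pgd (-0.21), 1500017E21Rik (-0.35) and Kif14 (-0.13), and just outside it Tceb1 (-0.61), Pisd-ps2 (0.62) and Entpd4 (-0.17). Intervals cover counting error only, and reads without molecular identifiers are not independent molecules. Values were computed in Python 3.11.15 with scipy 1.17.1, with steps tested on simulated data, and edgeR 4.0.16 gave the TMM factors of an alternative. Alternatives changed the scaling, count minimum, fold, interval, overlapping regions and density ranking.

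The genes compared and all 23 lists were chosen with earlier results of these data known. Named genes were the 12 lowest and 12 highest called genes without predicted models, the 10 with the largest drop in normalised counts per kb, 24 fixed genes such as Meis1 and Hoxa9, the lowest and highest tested member of each list, and every gene in a run of 3 or more called neighbours. Other list members and genes called in both marks were named after their values were seen. Promoter sequences were matched by gene ID to the RefSeq table, and 3827 of the 4925 genes (77.7%) had one, so the CG content of called genes is not compared with that of all genes. Some genes that the rule names are not reported here.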

Additional observations from a re-analysis of the deposited data

Results flagged for a closer look

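Dhx36, a helicase of G-quadruplex RNA and DNA (mm9 chromosome 3, 62270563 to 62310910), was called in opposite directions in the 2 marks. In H3K79me3 it had 230 counts in D546R, 439 in D544R and 397 in WT, a log2 ratio of D546R over WT of -1.04 (fragment interval -2.09 to -0.09). In H3K79me2 it had 273 counts in D546R, 218 in D544R and 238 in WT, a log2 ratio of 1.01 (0.46 to 1.57). The difference between the marks was not tested, and the H3K79me3 interval ends close to no change. The H3K79me3 call was lost with total counts, with size factors from genes of a mean of at least 300 and with 2 times the reads per fragment.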

How the results depend on the processing

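The count of lower genes was 601 at a mean of at least 100, 72 at a mean of at least 1000, 804 with no filter, 583 at 1.5-fold, 16 at 4-fold and 150 over regions that overlap no other. The count of higher genes was 461, 0, 908, 304, 0 and 54 under the same alternatives, and 44 with 2 times the reads per fragment, where 177 were lower. Lower genes made up 74.6% of calls, against 56.6% at a mean of at least 100 and 47.0% with no filter. The split also moved with the scaling: 195 lower and 108 higher with total counts (64.4% lower), 196 and 108 with size factors from genes of a mean of at least 300 (64.5%), and 305 and 57 with silent long genes as the reference (84.3%). The cause was not tested.

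The median of the densest class was -0.59 ranked by the WT H3K79me3 library, which shares its counting error with the ratio, -0.45 with total counts and with size factors from genes of a mean of at least 300, -0.48 with TMM factors, -0.55 with the D546R and WT libraries alone and -0.59 with silent long genes as the reference. The median of the MLL fusion targets was -0.35 after subtracting class medians, an alternative added after seeing the data. The log2 ratios of the 94 named genes moved by less than their intervals in all 564 values under another scaling or prior, and 0 called ratios changed sign. A scaling shifts all genes by the same amount, here at most 0.07 in size, and called ratios are at least 2-fold. This outcome was therefore fixed in advance for the scalings, and the 564 values are not separate checks. Of the 56 named genes called, 48 kept the call under 5 scalings, 2 times the reads per fragment and the filter on the 2 libraries alone, as did 25 of the 26 genes lower in both marks, Eya1 being the exception. Of 133 list medians 113 moved by less than the interval of the summed counts and 20 by more. The medians of 3 of 19 lists (stem and progenitor, housekeeping, cell cycle inhibitor and p53), all within 0.05 of 0, changed sign under a scaling, and those of 4 did after subtracting class medians.

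No paired analysis was possible because each group has 1 library, and no replicate was left out for that reason.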

Other observations

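Among genes of the densest class with a RefSeq promoter entry, those called lower had a median of 24.0 CG in the 250 bases before the start (94 of 111 genes matched, averaged over a gene's starts), and those not called had 23.0 (307 of 378 matched). The share with 10 or more CG was 87.2% and 88.9% in the same order. Genes called lower in that class thus stood close to equally dense genes that were not called.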
